A study of Mus musculus with 19 samples.

Results

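The genes described here had high values in mouse prostate and low values in every renal graft of reprogrammed cells measured beside it. The membership rule asked for a mean of at least 10 over the 6 prostate samples (FS009 to FS014) and a value at or below 6 in each of 5 renal grafts (titled FS002, FS003, FS005, FS007, FS008), on the deposited log2 scale, and it left out 10 other prostate genes by name. It found 5 of 23284 genes: Gm5077, A630095E13Rik, Glb1l3, Fgl1 and D030018L15Rik. Of all genes, 3989 had a prostate mean of at least 10 and 8341 were at or below 6 in every one of these grafts. With no gene left out by name, 1 further gene (Ms4a5) would have met the rule, which makes 6.

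The prostate samples were whole tissue of wild-type C57BL/6 mice at 6 weeks of age. The fibroblasts were C57BL/6 mouse embryonic fibroblasts (MEFs) from E13.5 embryos, heterozygous for a lacZ insertion, from male and female littermates that were pooled and sorted against blood, endothelial and epithelial surface proteins. For the grafts, such fibroblasts were turned into induced epithelial (iEpt) cells by retroviral expression of Oct4, Sox2, Klf4 and c-Myc in epithelial medium. The iEpt cells received the set of factors called NAF, which includes androgen receptor and Foxa1, were combined with rat urogenital mesenchyme of stage E18.5 and were grown for 6 weeks under the kidney capsule of male nude mice given testosterone. The GEO labels are identical for all 7 grafts and do not give the NAF factors. The 5 grafts of the first table are listed by title as iEpt+NAF in the study's supplement. The other 2 grafts, FS022 and FS023, are iEpt grafts without NAF only by elimination, and they lie in a second table that was normalized separately, so their values are set beside the others without a test. A graft holds rat mesenchyme and host kidney as well as mouse epithelium, and in such bulk RNA fewer cells of a type and less RNA per cell cannot be told apart. Nothing in the labels says that the samples of a group came from separate animals or cultures, so tests measure the spread between these samples only.

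The libraries held from 16767295 to 26152349 reads on genes among the first 17, and 6629666 (FS022) and 9662062 (FS023) for the others. A gene with 0 reads has a value near −0.31 on the deposited scale, and values at 0 reads scattered around it with a median SD of 1.09 over the samples. The value of 3 reads, taken as the lowest level this depth can show, was 1.68 to 2.05 in the 5 grafts, 1.88 to 2.08 in the MEFs, and 2.70 and 3.12 in the second table. Luminal epithelial markers (Krt8, Krt18, Krt19, Epcam, Cdh1 and Cd24a) averaged 13.23 to 13.60 in prostate and 12.05 to 13.45 in the 5 grafts. All 6 were above 6 in every sample of both groups, but they do not tell prostate epithelium from other epithelium in a graft. Basal markers (Krt5, Krt14, Krt15 and Trp63) averaged 9.90 to 10.65 in prostate and 5.67 to 12.59 in the grafts. Smooth muscle markers averaged 13.45 to 14.15 in prostate and 9.16 to 11.75 in the grafts. Kidney markers averaged 5.44 to 12.11 in the grafts and at most 2.94 in prostate. In prostate, all 6 seminal vesicle markers were at or below 6 in every sample, while in the grafts they averaged 0.30 to 8.38.

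Prostate epithelium is a secretory tissue whose luminal cells release proteases, protease inhibitors, small cysteine-rich proteins and clotting factors into seminal fluid, and much of this programme depends on androgen receptor. The 4 protein-coding genes found here belong to gene families known for secreted or lysosomal proteins. Gm5077 (C1s2 in RefSeq) encodes a protease of the complement C1s family, which in serum cleaves C4 and C2 to start the classical complement pathway. Fgl1 encodes a secreted protein with a fibrinogen-like domain, best known from liver and as a ligand of LAG-3, an inhibitory receptor of T cells. Glb1l3 is related to lysosomal beta-galactosidase, the enzyme that removes terminal galactose from glycoconjugates. A630095E13Rik (Pate14 in RefSeq, also called Sslp1) encodes a small cysteine-rich protein of the PATE group, whose members are related to Ly6 proteins and are found in fluids of the male reproductive tract. D030018L15Rik has no known protein product and is annotated as a processed transcript.

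The label of the group, silent in all iEpt+NAF grafts, was checked against the depth. A value of 6 stands for 69.9 to 104 reads in the 5 grafts, so the limit of the rule lies well above the detection limit. Of the 25 values of the 5 genes in these grafts, 22 were above the level of 3 reads. The 4 protein-coding genes passed that level in all 5 grafts, and D030018L15Rik passed it only in FS007 and FS008. No gene was at or under it in all 5 grafts. Values above 3 reads were also frequent in MEF samples FS015 to FS018 (16 of 20), so a few reads do not by themselves show that a gene was expressed in a graft, and the source of these reads was not tested. By limma, 5 of 5 were higher in prostate than in the grafts, a contrast the rule used, so nothing is read from that count; 10.3% of the 16353 genes tested passed in that direction (20.4% of 15534 after quantile normalization).

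**Figure D1:**
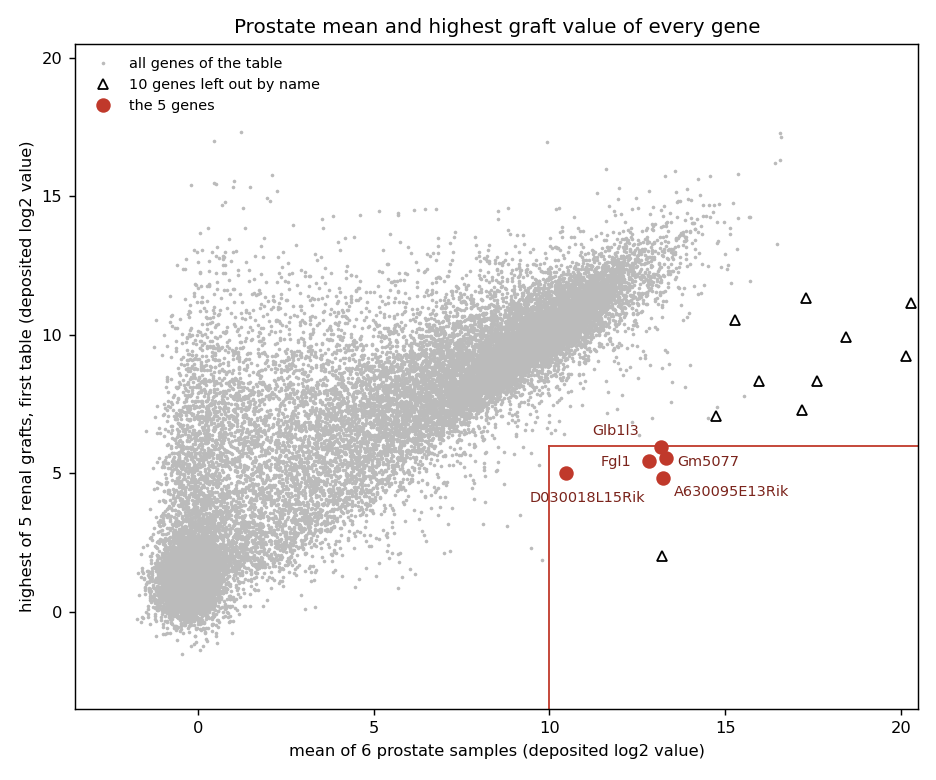
Each grey point is 1 of 23284 genes, placed by its prostate mean (6 samples) on the x axis and by the highest of the 5 grafts of the first table on the y axis, both in deposited log2 values. The red lines mark the limits of 10 and 6, the red points are the 5 genes that meet the rule, and the open triangles are the 10 genes left out by name, of which Ms4a5 alone lies inside the limits.

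The graft limit cut through a continuous range. Just inside it were Glb1l3, with a highest graft value of 5.94, Gm5077 with 5.54 and Fgl1 with 5.45. Just outside were 9530003J23Rik with 6.38, Gucy2g with 6.41 and Phf19 with 6.45. At the prostate limit, D030018L15Rik was just inside with a mean of 10.47, and G630008E18 (9.78), LOC433944 (9.71) and Cyp3a57 (9.47) were just outside. Graft FS003 kept 3 genes out: without it, 9530003J23Rik, H2-Q10 and Hoxb13 also met the rule, which makes 8. Hoxb13, a homeobox gene of the posterior body axis and the prostate, had a prostate mean of 12.91 ± 0.27 (SD, n = 6) and a value of 6.99 in FS003, against 1.8 to 4.86 in the other 4 grafts.

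Gm5077, the C1s-family protease, lies on chromosome 6, chr6:124574584-124587055 on the minus strand of mm9. Its longest annotated transcript has 12 exons and 2924 bases. In prostate it was counted with 12991 reads in FS009, 5528 in FS010, 14086 in FS011, 7186 in FS012, 9561 in FS013 and 16871 in FS014, which are values of 13.92, 12.17, 13.68, 12.68, 13.31 and 14.15. The 5 grafts, in the order in which the rule lists them (FS002 first and FS008 last, as in all that follows), had 4.61, 5.47, 4.01, 5.54 and 4.28. The grafts differed little among themselves, and the lowest prostate sample lay 6.63 above the highest graft. For each of the 5 genes the rule favoured such gaps and differences between prostate and grafts in advance, so nothing is read from them. The MEF samples FS015 to FS020 had 5.43, 3.39, 4.79, 3.58, 4.05 and 2.93. These overlapped with the grafts, and Gm5077 was the only one of the 5 genes above the level of 3 reads in all 6 MEF samples. In the second table FS022 had 5.58 and FS023 had 3.32. The mean difference between prostate and grafts was 8.54 ± 0.44 (SE, 6 against 5 samples).

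The promoter of Gm5077 is shown because its closest relative, C1s, kept high values in the grafts, so that the 2 genes can be compared at this level. The window spans 200 bases before to 40 bases after the RefSeq start (GRCm38.p6, chr6:124636046-124636285, minus strand). Capitals in this and the next promoters mark matches to the motifs searched on both strands, namely the androgen response element (AGAACA and TGTTCT with any 3 bases between them), its unit TGTTCT, the forkhead motifs TGTTTAC and TGTTTGC, the NK homeobox motif TAAGTA and the TATA box TATAAA. The unit TGTTCT is part of the androgen response element, so a match to the longer motif also counts for it.
Gm5077 promoter: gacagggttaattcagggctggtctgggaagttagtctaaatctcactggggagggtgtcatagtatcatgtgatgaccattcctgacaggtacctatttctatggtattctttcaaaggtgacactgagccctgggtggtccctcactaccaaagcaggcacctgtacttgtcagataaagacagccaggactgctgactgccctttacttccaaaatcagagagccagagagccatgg
No letter is in capitals, because none of these motifs was present. C1s has 2 promoters in RefSeq, and only the first was searched for motifs. It had TGTTCT at −30 and TGTTTGC at −36, both on the minus strand. The best alignment of the Gm5077 promoter with either C1s promoter covered only 17 positions, with 13 identical. TGTTCT was present in 19.0% and TGTTTGC in 5.07% of the 32851 RefSeq promoter windows of 300 bases, so matches this short are no evidence of a site.

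The transcripts of Gm5077 and C1s are nearly alike, with 95.5% identity over 2907 aligned bases, and the annotated spans of both genes overlap on the same strand. Of all stretches of 50 bases in Gm5077, 30.1% also occur in C1s. Reads that lie wholly within these stretches cannot be assigned to 1 of the genes, while longer reads may reach bases that differ. How the authors counted shared reads is not given in the sources used here, so the low graft and MEF values of Gm5077 are uncertain. C1s had 10.23 ± 0.46 (SD) in prostate and 9.25 ± 1.00 in the grafts. The difference of 0.98 ± 0.41 (SE) did not pass by limma (adjusted p = 0.0596), but it passed without graft FS002 (1.23, adjusted p = 0.0236) and without FS003 (1.13, adjusted p = 0.048), and was 0.57 without FS008 (adjusted p = 0.091). The relatives in this and the next paragraphs were chosen by homology or position after the 5 genes were known.

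C1rb, the copy of the C1r protease gene that lies beside Gm5077 on chromosome 6 (chr6:124462790-124531062, plus strand), had the pattern most like the mean of the 5 genes over the 17 samples (Pearson's r = 0.996, a description). Its prostate values were 14.87, 13.70, 14.89, 13.88, 14.58 and 15.17 in FS009 to FS014. Its graft values were 5.82, 6.57, 5.30, 7.0 and 6.28, so 3 grafts were above the limit of 6 and kept it out of the rule. In the MEF samples it ranged from 3.33 to 6.36. In the second table the grafts stood far apart, with 8.37 in FS022 and −0.33 in FS023. C1rb was 8.32 ± 0.34 (SE) higher in prostate than in the grafts (limma adjusted p = 9.84e-08). Its near copy C1ra (97.9% identity over 2169 bases, 60.7% of stretches of 50 bases shared) had 9.45 ± 0.31 in prostate and 7.82 ± 0.88 in the grafts, a difference of 1.63 ± 0.35 (adjusted p = 0.00204). C1rl, another relative, differed by 1.87 ± 0.47 (adjusted p = 0.00536). So 3 of the 4 relatives passed as higher in prostate, beside 10.3% of all genes tested (20.4% after quantile normalization), within the limits set by shared sequence.

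**Figure D2:**
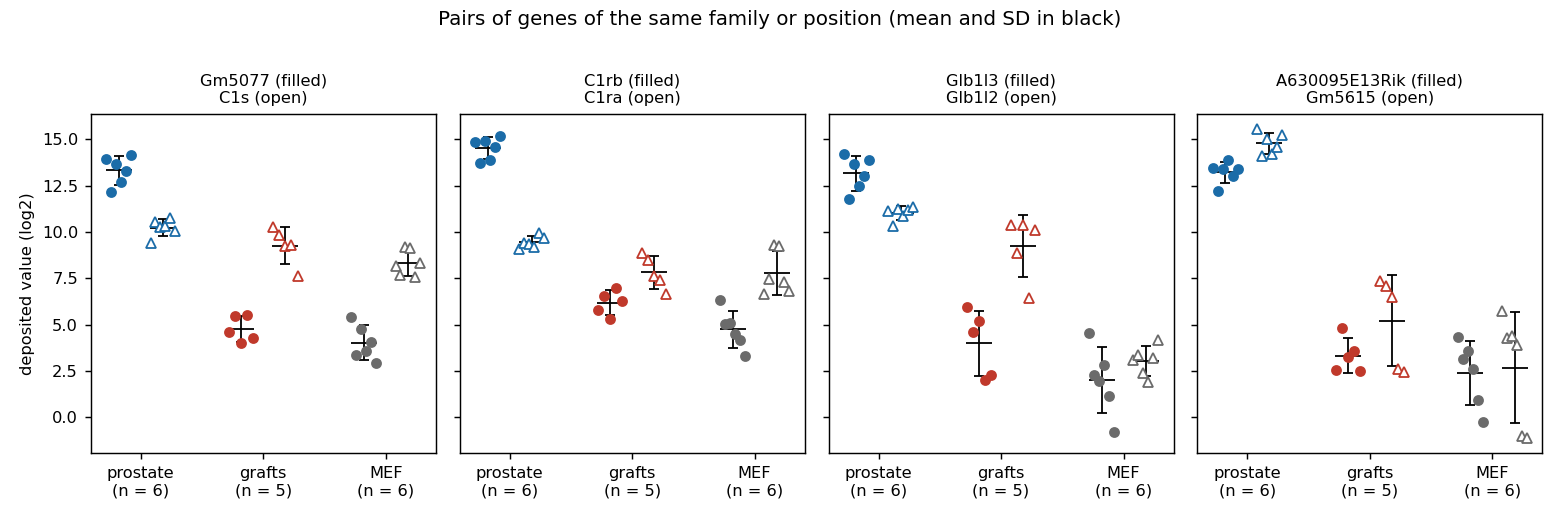
Deposited log2 values of 4 pairs of genes related by sequence or position in prostate (n = 6), the grafts of the first table (n = 5) and MEFs (n = 6), with mean and SD in black. Gm5077, C1rb and Glb1l3 (filled) are at least 11.75 in prostate and at most 7.0 in the grafts. C1s, C1ra and Glb1l2 (open) differ less between these groups, with means of 10.23, 9.45 and 11.02 in prostate and 9.25, 7.82 and 9.22 in the grafts. A630095E13Rik and Gm5615 are both far lower in the grafts than in prostate.

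Fgl1, the fibrinogen-like secreted protein, lies at chr8:42276788-42300510 on the minus strand. Its prostate values were 13.80, 11.66, 13.13, 12.37, 12.67 and 13.41 in FS009 to FS014. The 5 grafts of the first table had 5.26, 5.45, 4.17, 3.20 and 2.18. Prostate and grafts did not overlap, which the rule favoured in advance, and FS008 was just above its level of 3 reads. The MEF samples had 3.78, 3.18, 3.16, 3.21, 2.24 and −1.60, so the first 4 were nearly level and FS020 stood far below. In the second table Fgl1 had 6.15 in FS022, the only value of the 5 genes above 6 outside prostate, and 2.79 in FS023. The mean of prostate was 8.79 ± 0.69 (SE) above that of the grafts.

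The relatives of Fgl1 did not share its pattern. Fgl2, a secreted and membrane-bound fibrinogen-like protein, had 9.5 ± 0.61 in prostate and 9.19 ± 0.63 in the grafts, a difference of 0.31 ± 0.34 (SE) that did not pass (adjusted p = 0.449). The fibrinogen chain genes Fga and Fgb, products of liver, were near the level of 0 reads in prostate and passed as higher in the grafts. Their prostate minus graft differences were −5.72 ± 0.67 (SE, adjusted p = 3.68e-05) and −6.15 ± 1.02 (adjusted p = 0.000414). Both were tested only because of their graft values, which favoured that direction in advance. Fgg was not tested because its mean was too low. The nearest genes on either side were not called between prostate and grafts: Mtus1 had a difference of 0.28 ± 0.27 (adjusted p = 0.403), and Pcm1 differed by 0.20 ± 0.08 (adjusted p = 0.0459), which is under the minimum of 1. Farther out, the noncoding B430010I23Rik was called higher in prostate (2.35 ± 0.57, limma adjusted p = 0.00473). Asah1, with −0.52 ± 0.12 (adjusted p = 0.00328), was not called. No promoter of Fgl1 was among the RefSeq windows used.

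Glb1l3, the beta-galactosidase relative, lies at chr9:26625538-26668408 on the minus strand, in 20 exons. The prostate samples had 14.23, 11.75, 13.65, 12.47, 13.01 and 13.89 in FS009 to FS014, from 4145 reads in FS010 to 16017 in FS009. The 5 grafts of the first table had 5.94, 4.61, 5.17, 2.04 and 2.26. Prostate and grafts did not overlap, which the rule favoured in advance. The grafts split into 3 higher and 2 lower values, and in FS007 and FS008 the level of 3 reads was close, at 1.98 and 2.05. The MEF samples had 4.56, 2.28, 1.95, 2.85, 1.16 and −0.80, of which 3 passed the level of 3 reads. In the second table FS022 had 5.60 and FS023 had −0.30, at the level of 0 reads. Prostate was 9.16 ± 0.87 (SE) above the grafts.

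The promoter of Glb1l3 (GRCm38.p6, chr9:26860784-26861023, minus strand) is shown because it held a motif match, alone among the 3 promoters at hand.
Glb1l3 promoter: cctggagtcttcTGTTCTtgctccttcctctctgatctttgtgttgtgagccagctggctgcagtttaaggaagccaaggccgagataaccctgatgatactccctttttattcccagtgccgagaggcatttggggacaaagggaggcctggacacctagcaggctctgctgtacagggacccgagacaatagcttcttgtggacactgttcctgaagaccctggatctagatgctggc
The unit TGTTCT, in capitals, starts at −188. A match of 6 letters occurs in 19.0% of all windows and is no evidence of a site.

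Glb1l2 lies next to Glb1l3, 11485 bases away on the same strand, and its transcript is 67.6% identical over 1128 aligned bases with no shared stretch of 50 bases. It had 10.36, 8.85, 10.35, 6.45 and 10.09 in the 5 grafts, so 4 of them were near the prostate range of 10.33 to 11.36 and FS007 was far below. In the MEFs it averaged 3.03 ± 0.80. Prostate was 1.8 ± 0.62 (SE) above the grafts (limma adjusted p = 0.0277), and the call was lost without FS003 (1.70, adjusted p = 0.0563). Without FS007 the difference was smaller, at 1.10 (adjusted p = 0.0096). Gm1110, the neighbour on the other side and low throughout, was 4.26 ± 0.74 higher in prostate (adjusted p = 0.000545). It was tested only because of its prostate values. Acad8, beyond Gm1110, was higher in prostate by 1.46 ± 0.16 (adjusted p = 2.01e-05). B3gat1, beyond Glb1l2, went the other way, with −3.86 ± 0.39 (adjusted p = 1.37e-05), and was tested only because of its graft values. Glb1, the lysosomal enzyme itself, was 1.03 ± 0.19 higher in prostate (adjusted p = 0.000744), at the limit of the minimum change: without FS007 it was 0.86, after quantile normalization it was 0.96, and neither was called. Glb1l was lower in prostate, with a difference of −1.07 ± 0.41 (adjusted p = 0.044), and that call did not hold. It was lost without FS002 (−1.04, adjusted p = 0.0798), without FS005 (−0.82, adjusted p = 0.109) and without FS008 (−0.80, adjusted p = 0.0987). It was also lost with no filter on low values (adjusted p = 0.0519), without the trend in limma (adjusted p = 0.054) and after quantile normalization (−0.69, adjusted p = 0.292).

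A630095E13Rik, the PATE-group gene, lies at chr9:36443340-36446187 on the minus strand, with 4 exons in a transcript of 618 bases. Its prostate values were 13.44, 12.21, 13.40, 13.87, 13.03 and 13.37 in FS009 to FS014, from 5678 reads in FS010 to 16324 in FS012. The 5 grafts of the first table had 2.56, 4.82, 3.25, 3.56 and 2.5. It was the 1 gene that still met the rule with a graft limit of 5, and its lowest prostate sample was 7.39 above its highest graft. The MEF samples had 4.31, 3.14, 3.57, 2.63, 0.93 and −0.25, with the last 2 under the level of 3 reads. In the second table it was under that level in both grafts, with 0.14 and −0.52. Prostate was 9.88 ± 0.48 (SE) above the grafts.

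The promoter of A630095E13Rik (GRCm38.p6, chr9:36638563-36638802, minus strand) is given for comparison with that of Glb1l3.
A630095E13Rik promoter: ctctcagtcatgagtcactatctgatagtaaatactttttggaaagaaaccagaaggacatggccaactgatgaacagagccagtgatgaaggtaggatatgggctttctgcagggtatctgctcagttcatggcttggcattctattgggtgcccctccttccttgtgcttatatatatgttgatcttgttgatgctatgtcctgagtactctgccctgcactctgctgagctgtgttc
None of the motifs was found in it. Among all windows, TGTTTAC was present in 3.65%, TGTTTGC in 5.07%, TAAGTA in 7.59%, TATAAA in 13.6% and the full androgen response element in 0.00913%. Absence says only that these letters are not in the window. A promoter of D030018L15Rik was not among the RefSeq windows used.

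The PATE genes form a cluster on chromosome 9. Of the 12 relatives of A630095E13Rik in the table, 9 were too low to be tested between prostate and grafts. Gm5615 (Pate9 in RefSeq) was high in prostate, with 15.55, 14.08, 15.01, 14.21, 14.60 and 15.20. Its grafts had 7.38, 7.08, 6.50, 2.63 and 2.46, so 3 exceeded the limit of 6. It was 9.56 ± 0.91 (SE) higher in prostate (adjusted p = 8.71e-06). Its MEF values were between 3.89 and 5.74 in FS015 to FS018 and at −1.02 and −1.10 in FS019 and FS020. Pate4, known from seminal vesicle, had the opposite order in some grafts, with 8.39, 8.43, 12.33, 2.94 and 2.02 against 2.94 ± 1.32 in prostate, and 12.76 in FS022 against 2.24 in FS023. Its difference did not pass (adjusted p = 0.0623), but it passed without FS007 (adjusted p = 0.0225) and without FS008 (adjusted p = 0.0124). Acrv1, a sperm acrosomal protein gene on the other side of A630095E13Rik, was higher in prostate, as Gm5615 was, by 6.27 ± 0.59 (adjusted p = 8.19e-06). Acrv1 was tested only because of its prostate values, which favoured that direction in advance.

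D030018L15Rik, the noncoding transcript, lies at chr15:95882047-95909984 on the minus strand. Its transcript resembled those of 31 protein-coding genes in part (best 83.5% identity over 885 bases, with Ncoa2) but shared no identical stretch of 50 bases with them in the same orientation. Its prostate values were 10.82, 11.06, 10.35, 10.30, 9.72 and 10.57 in FS009 to FS014. The grafts FS002, FS003 and FS005 had 1.35, 0.74 and 1.27, all under the level of 3 reads, while FS007 and FS008 had 5.02 and 4.33. This was the reverse of Glb1l3, Fgl1 and Gm5615, which were lowest in FS007 and FS008. Among the MEF samples, values were 2.30, 1.34, 1.88, −0.47, −0.03 and 1.03, with only FS015 above the level of 3 reads. Both grafts of the second table were under it, with −2.65 in FS022 and 2.37 in FS023. Prostate was 7.93 ± 0.90 (SE) above the grafts. Of its 4 neighbours, 2610037D02Rik (−1.51 ± 0.84, adjusted p = 0.146), Ano6 (0.43 ± 0.13, adjusted p = 0.0124) and Arid2 (0.13 ± 0.21, adjusted p = 0.614) were not called between prostate and grafts. Dbx2, a homeobox gene 395656 bases away, was called lower in prostate (−3.76 ± 1.33, adjusted p = 0.0313), but not every graft showed this. It had 5.59, 6.09 and 4.35 in FS002, FS003 and FS005. FS007 and FS008, with 0.14 and −0.46, lay within the prostate range of −2.64 to 0.86. Dbx2 was tested only because of its graft values, which favoured that direction in advance.

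**Figure D3:**
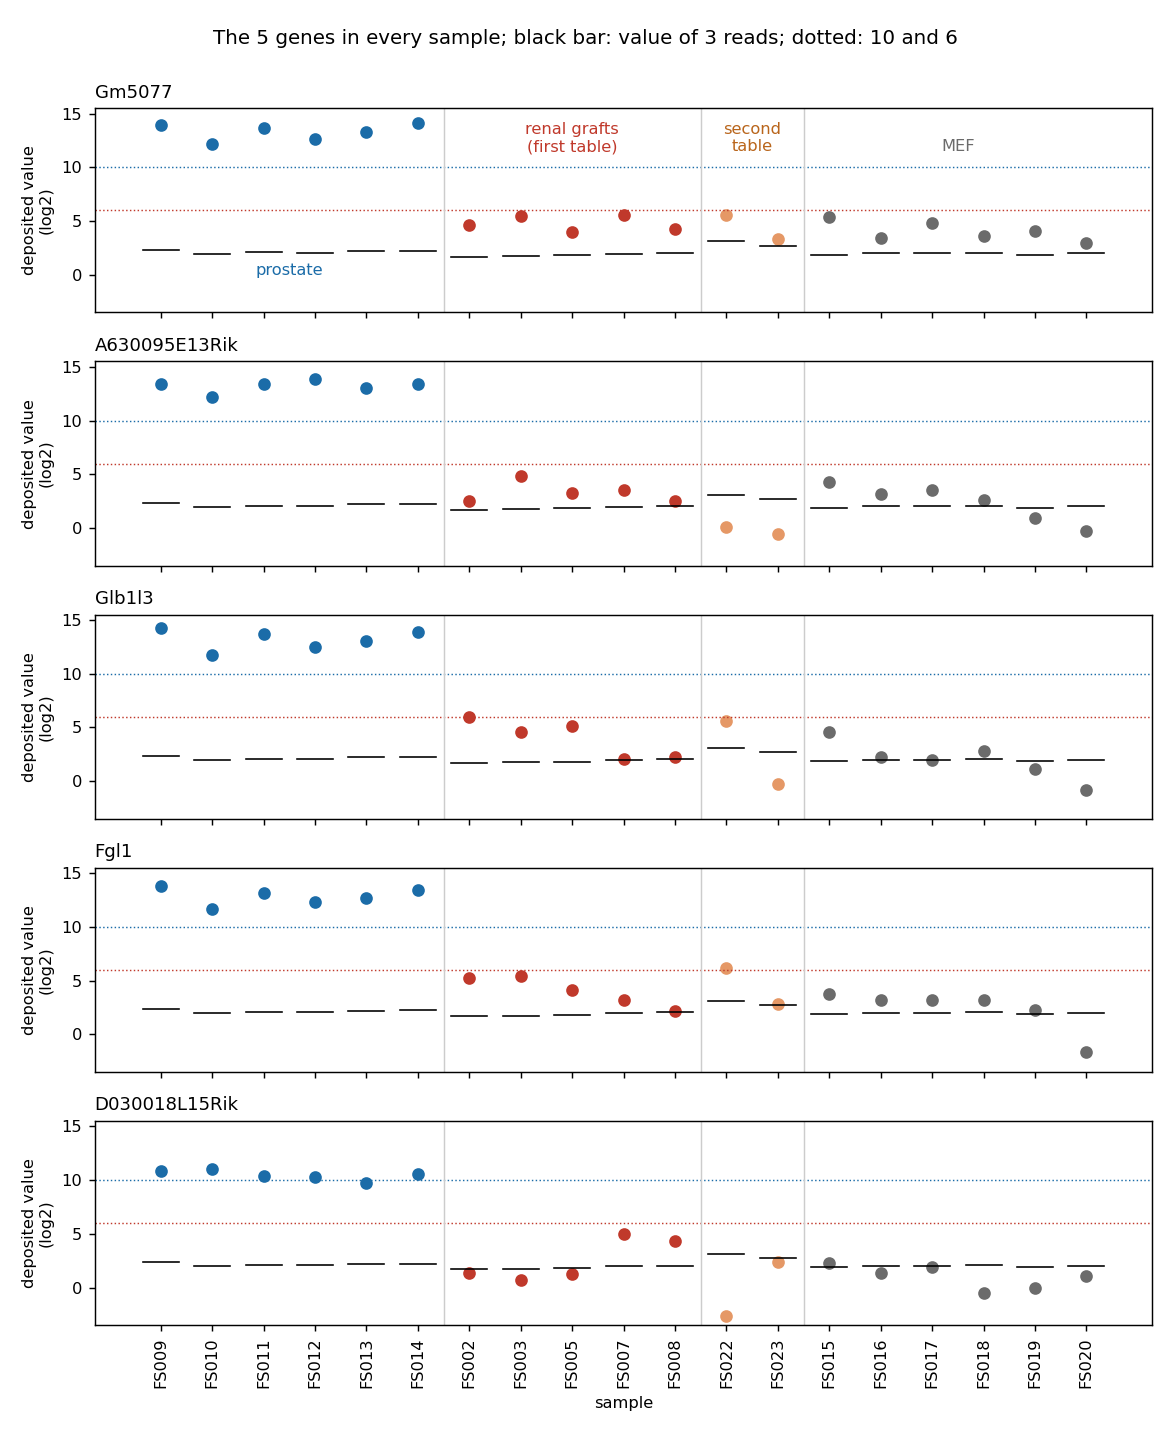
Deposited log2 values of the 5 genes in every sample, in the order prostate, grafts of the first table, grafts of the second table and MEFs, with a black bar at the value of 3 reads and dotted lines at 10 and 6. Prostate values lie between 9.72 and 14.23, every value of the first-table grafts and MEFs is below 6, and D030018L15Rik is the gene with the most points under the bar.

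In the MEFs, from which the grafted cells descend, no gene reached 6 in any sample. The 5 genes passed the level of 3 reads in 16 of 20 values of FS015 to FS018 and in 3 of 10 of FS019 and FS020. Prostate exceeded MEFs by 9.29 ± 0.49 (SE) for Gm5077, 10.83 ± 0.74 for A630095E13Rik, 11.17 ± 0.82 for Glb1l3, 10.51 ± 0.87 for Fgl1 and 9.46 ± 0.48 for D030018L15Rik. By limma 5 of 5 were higher in prostate than in MEFs, beside 27.8% of 14560 genes tested. Since the rule used the prostate values, this too is a description.

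As a share of the mean prostate level on the linear scale, the median of the 5 genes was 0.205% in FS015, 0.0788% in FS016, 0.102% in FS017 and 0.0528% in FS018. It was 0.00844% in FS019 and 1.33e-05% in FS020. The 10 prostate genes left out by name followed the same samples, with medians of 0.182%, 0.0545%, 0.0722%, 0.0574%, 0.000364% and 9.12e-05%. In FS015 each of these 10 lay between 0.178% and 0.250%, and 4 of the 5 genes between 0.149% and 0.233%. Only Gm5077 was above, at 0.366%. FS015 to FS018 thus held more of both sets than FS019 and FS020, and the cause was not tested.

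In the grafts, medians of the 5 genes were 0.201% of the prostate level in FS002, 0.264% in FS003, 0.128% in FS005, 0.101% in FS007 and 0.0411% in FS008. They lay above the medians of FS019 and FS020 and overlapped with those of FS015 to FS018. The highest single value was D030018L15Rik in FS007, at 2.09%. Grafts minus MEFs gave 0.75 ± 0.49 (SE) for Gm5077, 0.95 ± 0.82 for A630095E13Rik, 2.00 ± 1.07 for Glb1l3, 1.72 ± 1.02 for Fgl1 and 1.53 ± 0.99 for D030018L15Rik. The ranges of grafts and MEFs overlapped for 5 of 5. Of the 4 genes that passed the filter on low values, 0 were called in either direction by limma and 0 had an unadjusted p under 0.05. Among all 16121 genes tested, 29.9% were higher in the grafts (18.0% of 15725 after quantile normalization). The rule held every graft value of the 5 genes at or below 6, which favoured small differences from MEFs in advance. Nothing is therefore read from these counts or from the overlap. Against FS019 and FS020 alone, the grafts did not overlap with MEFs for A630095E13Rik and Glb1l3, and they did for the other 3. These MEF samples are few, and for Glb1l3 the nearest values were low, at 2.04 in graft FS007 and 1.16 in FS019. The share of all genes without such an overlap was not computed, so nothing is read from this split either.

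Within prostate the 5 genes varied more than most. Their SD over the 6 samples was 0.47 to 0.94, against a median of 0.14 over the 3989 genes with a prostate mean of at least 10. The rule used only the mean of these samples, so the way the genes vary together over them could be tested. Glb1l3 and Fgl1 ranked the 6 samples in the same order (Pearson's r = 0.995, Spearman's rho = 1, exact permutation p = 0.00278 for each, the smallest that 6 samples allow, adjusted p = 0.0278 over 10 pairs). Gm5077 followed Glb1l3 (r = 0.975, rho = 0.943) and Fgl1 (r = 0.958, rho = 0.943), each with an exact two-sided permutation p of 0.00833 by Pearson (adjusted p = 0.0278) and 0.0167 by Spearman (adjusted p = 0.0556). Without the 2 samples farthest from the median, r was 0.993, 0.856 and 0.824. The other 7 pairs did not pass (adjusted p from 0.567 to 0.942 by Pearson), but this rests on few samples: without FS010 and FS012, r was 0.802 for A630095E13Rik with Gm5077, 0.921 with Glb1l3, 0.859 with Fgl1 and 0.937 with D030018L15Rik, and 0.878 for D030018L15Rik with Gm5077. Without FS009 and FS010, r of D030018L15Rik was only 0.480 with Glb1l3 and 0.553 with Fgl1. These r values go both ways and rest on few samples, so a difference between the 3 pairs and the others is not shown. A630095E13Rik shared the low value of FS010 but was highest in FS012, and D030018L15Rik was highest in FS010. This test was chosen after the values were seen.

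Gm5077, Glb1l3 and Fgl1 were averaged because they covaried over these same samples, so their mean is a description only. It was 13.98 in FS009, 13.81 in FS014, 13.49 in FS011, 12.996 in FS013, 12.51 in FS012 and 11.86 in FS010. Tgm4, the transglutaminase that clots semen, and Spink8, a Kazal-type protease inhibitor, followed the same order most closely among genes looked at (r = 0.998 and 0.997, both picked after their values were seen). Of the 3989 genes, 244 (6.12%) had an r above 0.9 with this mean and 31 (0.777%) had one below −0.9. The 6 fibroblast markers (Col1a1, Col1a2, Col3a1, Pdgfra, Thy1 and Dpt) averaged 10.68 in FS009, 10.99 in FS014, 11.17 in FS011, 11.94 in FS013, 11.64 in FS012 and 11.97 in FS010, nearly the reverse order. Luminal markers ranged only from 13.23 in FS010 to 13.60 in FS012. The part of tissue make-up in the spread of the genes was not tested.

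**Figure D4:**
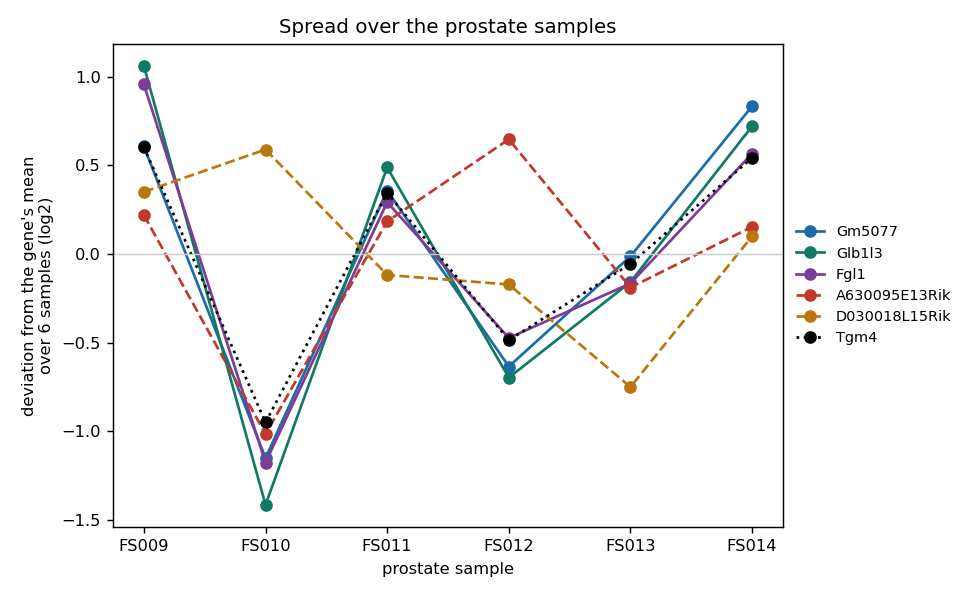
Deviation of each gene from its own mean over the 6 prostate samples, in log2 units, for the 5 genes and Tgm4. Gm5077, Glb1l3, Fgl1 and Tgm4 are lowest in FS010, as is A630095E13Rik, which is highest in FS012. D030018L15Rik is highest in FS010. Tgm4 was picked after its values were seen. That Gm5077, Glb1l3 and Fgl1 differ from the other genes in how they vary together is not shown.

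None of the 5 genes stood on the 11 lists of secretory and prostate-related genes set for the tissue, so these lists show what other genes did between prostate and grafts. By limma, 23.0% of all genes tested were lower in prostate, 10.3% were higher (20.4% after quantile normalization) and the median difference was −0.11. Among kallikreins, secreted serine proteases, 12 of 15 tested were lower in prostate, with a median difference of −4.57. With no filter on low values, 17 of 26 were lower (median −3.30). Fewer genes passed the filter between prostate and MEFs: 2 kallikreins, 11 serpins and Kazal inhibitors and 0 seminal vesicle secretions. Many of those tested here thus passed it through their graft values, which favours lower values in prostate in advance. Among serpins and Kazal inhibitors 13 of 22 were lower and 2 higher (median −2.98), and among transglutaminases and semen clotting genes 3 of 6 were lower (median −1.81). Of the seminal vesicle secretions 1 of 7 was lower (median −3.54, and −2.19 without graft FS005), but 6 of 8 were without FS007 and 4 of 8 without FS008. Of the beta-defensins 3 of 8 were lower and 3 higher, with a median of 0.96 that ranged from 0.47 without FS008 to 2.87 without FS002. With no filter on low values, 4 of 27 were lower and 4 higher, and the median changed sign to −0.18. Glycosylation and secretory pathway enzymes had 16 of 30 lower and 6 higher (median −1.98), and ion channels and transporters had 15 of 39 lower and 10 higher (median −0.33, from −0.83 without FS008 to −0.09 without FS003). Smooth muscle genes had 16 of 26 higher and 2 lower (median 1.96), Hox genes 7 of 13 higher and 2 lower (median 1.5, and 2.66 after quantile normalization), and androgen-linked genes 7 of 24 higher and 5 lower. Of the Y-linked genes, 4 of 4 were higher in prostate (median 1.43), and 3 of 4 without FS003.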

How the data were processed

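RNA-seq of 6 prostate samples, 6 MEF samples and 7 renal grafts was analysed. The authors prepared libraries with the TruSeq RNA kit, and per the labels their processing notes name bcl2fastq 1.8.4, TopHat, Cufflinks, DESeq and the mm9 build; strand use in counting is not given in the sources used here. The deposited values are log2 numbers, in a first table of 17 libraries and a second table of 2 that was normalized by itself. Values from 11.5 to 15 stood for whole reads within 0.05 reads (100%), while lower values carry added scatter, so whole reads were printed only for high values and the count of reads behind lower ones is an estimate.

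The 5 genes, the lists and the membership rule were chosen with earlier results of these data known. Every gene that met the rule was named, with its value in every sample. Differences between groups were fitted in limma 3.58.1 (R 4.3.3, eBayes with trend) for every gene whose linear mean reached 10, and called at a Benjamini-Hochberg adjusted p under 0.05 and an absolute log2 change of at least 1, and the code was tested on simulated data. Covariation in prostate was tested by exact permutation over 6 samples. Coordinates of genes come from the GENCODE M1 annotation of mm9, names and promoters from RefSeq (GRCm38.p6), with 3 of 5 promoters found, and transcripts were aligned with blastn 2.17.0+. All columns were mapped to samples. Alternatives were other limits, scalings, read levels and leaving out each graft.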

Additional observations from a re-analysis of the deposited data

Results flagged for a closer look

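Fgl1 in MEF sample FS020 had a value of −1.60, far from the nearest of the other 5 MEF samples (2.24). The gap made up 0.714 of the range of the group, above Dixon's limit for 6 samples. It was the only one of 30 groups of values looked at (the 5 genes and C1rb, C1s, C1ra, Glb1l2 and Gm5615 in prostate, the first-table grafts and MEFs) to pass, and chance flags about 1 in 20. The value of FS019 lay near the level of 3 reads, and that of FS020 stood for 0 reads, where deposited values scatter.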

How the results depend on the processing

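The number of genes that met the rule depended on its limits. It was 1 with a graft limit of 5, 12 with a limit of 7, 11 with a prostate mean of at least 9, 4 with a mean of at least 11, and 12 after quantile normalization. With median-centred values it was 4, since Glb1l3 left, and without each graft in turn it was 5 to 8, highest without FS003. In the second table, 2 genes were at or under 3 reads in both grafts, 1 at the level of 1 read, and 2 to 3 when 1 graft was left out. The count of graft values above the level of 3 reads (22 of 25) became 24 at 1 read and 16 at 10 reads, and 17 to 18 of 20 without each graft, alternatives chosen after seeing the data. By Spearman's rho, 1 pair of genes covaried in prostate in place of 3. With no minimum fold change limma called 11772 genes between prostate and MEFs (7026 with it), 10573 between grafts and MEFs (6757) and 9093 between prostate and grafts (5440). Leaving out each graft gave 6370 to 6858 and 5051 to 5843 genes. Quantile normalization moved the median difference of prostate and grafts from −0.11 to 0.14 and the split of calls from 1683 higher and 3757 lower to 3176 and 2455. For prostate and MEFs it moved from 0.17 to −0.02 (4044 and 2982 to 3313 and 3570), and for grafts and MEFs from 0.26 to −0.20 (4815 and 1942 to 2828 and 3830). The cause was not tested. Depth limits the low values: near 3 reads the added scatter is as wide as many differences among grafts and MEFs.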
